A study of Homo sapiens with 6 samples.

Results

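The genes described here are the 6 peroxiredoxins (PRDX1 to PRDX6), thioredoxin (TXN), its cytosolic reductase (TXNRD1) and the glutathione peroxidases GPX1 and GPX2, which are 10 of the 50867 genes with values. They were found by symbol, and they had been selected on their FPKM in all 6 libraries, so their levels and differences are given as descriptions without a test. FPKM is the number of sequenced fragments per kilobase of gene and per unit of library depth. RNA was sequenced from UM-UC-3 cells, kept in Dulbecco's medium, and 5637 cells, kept in RPMI medium, both of them established lines from human bladder cancer. In each line, lentivirus delivered a negative control hairpin (sh-NC) or 1 of 2 hairpins against the long noncoding RNA LNMAT1, named sh-LNMAT1#1 or sh-LNMAT1#2, and puromycin was applied for 2 weeks to obtain stable cells. All 6 groups therefore shared infection and selection, each group was 1 library, and the labels do not say whether a stable line was 1 clone or many. The design asked which genes differ in the cells with less LNMAT1.

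Peroxiredoxins are enzymes that reduce hydrogen peroxide and other peroxides with a reactive cysteine. Most of them are returned to the reduced form by thioredoxin, which in turn is reduced by thioredoxin reductase at the expense of NADPH. Glutathione peroxidases remove peroxides with electrons from glutathione, and GPX1, GPX2 and TXNRD1 carry selenocysteine in the active site. The transcription factor NRF2, which KEAP1 holds in check, is known to drive TXNRD1, SRXN1 and the genes of glutathione synthesis.

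LINC01296, the row that holds LNMAT1, was 14.2 under sh-NC, 6.20 under sh-LNMAT1#1 and 6.70 FPKM under sh-LNMAT1#2 in UM-UC-3. The library labelled 5637 sh-NC had 11.7 FPKM, 5637 sh-LNMAT1#1 had 4.70 and 5637 sh-LNMAT1#2 had 2.14, so all 4 knockdown libraries were lower than the sh-NC library of their label. The libraries held 19374807 to 24706820 fragments. The epithelial genes KRT5, KRT7, KRT19, CDH1 and EPCAM lay at 14.1 to 409 FPKM in both 5637 knockdown libraries and under 1 FPKM in the other 4, while vimentin (VIM), at 3.85 and 4.14 FPKM in the 5637 knockdown libraries, was 103 to 332 FPKM in the other 4. KRT8 and KRT18 differed less, at 49.0 to 58.9 FPKM against 4.36 to 25.2 FPKM. The library labelled 5637 sh-NC thus carried the marker levels of the UM-UC-3 libraries and lacked those of the 5637 knockdown libraries. The markers of leukocytes and endothelium (PTPRC, CD3E, PECAM1) stayed at or under 0.177 FPKM in every library, and of the 2 collagen genes COL1A2 did not exceed 0.0145 FPKM while COL1A1 was 6.37 and 7.92 FPKM in the 5637 knockdown libraries. For 6 of the 9 genes whose mean reached 1 FPKM, the labelled library lay nearest to UM-UC-3 sh-LNMAT1#1 on the scale of log2(FPKM + 0.5). Its largest distance from that library was 0.43, at TXNRD1, against 6.85 from 5637 sh-LNMAT1#1 and 6.78 from 5637 sh-LNMAT1#2, both at PRDX2. The size of the distance at PRDX2 depends on the constant added. By group means, 6 of the 9 genes lay nearer to the UM-UC-3 libraries. TXN, PRDX6 and PRDX4 lay nearer to the 5637 knockdown libraries. The genes were chosen with these values known, so these distances are descriptions. In a comparison of the 5637 knockdown with the labelled library, knockdown and cell line cannot be told apart. For that reason the 5637 knockdown libraries were also compared with the UM-UC-3 knockdown libraries of the same hairpin, which leaves the labelled library out.

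A gene was counted as higher or lower when it differed at least 2-fold in log2(FPKM + 0.5) in the same direction with both hairpins, among the 12716 genes whose mean reached 1 FPKM. Of the 10 genes, 9 passed this limit. GPX2 did not, and PRDX2 passed only through the 5637 knockdown libraries. In UM-UC-3 knockdown against UM-UC-3 sh-NC, 1 of the 9 was higher, PRDX4, and 0 were lower, where 0.967% of all genes tested were higher and 0.346% lower. In 5637 knockdown against the library labelled 5637 sh-NC, PRDX2 was higher and PRDX5 and TXNRD1 were lower, where 15.9% of all genes were higher and 14.2% lower. In 5637 knockdown against UM-UC-3 knockdown, PRDX2 was again higher and PRDX5 and TXNRD1 again lower, beside 12.1% of all genes higher and 11.2% lower. In bulk RNA, fewer cells that express a gene and less of its RNA per cell cannot be told apart. Since the genes were chosen with these values in view, the counts are read no further. Against UM-UC-3 sh-NC in place of the UM-UC-3 knockdown, a reference added after the data were seen, PRDX2 and PRDX4 were higher and PRDX3 and TXNRD1 lower in 5637 knockdown, and PRDX5 no longer passed, at -0.86 and -1.04 on the log2 scale. With that reference, 3452 of the 12716 genes passed in 1 direction or the other. All these comparisons use the same 5637 knockdown libraries and are not independent. The median log2 difference of the 9 genes was 0.21, -0.55 and -0.40 in the 3 comparisons in that order, and that of all genes tested was 0.0019, -0.018 and -0.052. Among genes whose mean reached 5 FPKM it was 0.0074, -0.12 and -0.14.

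**Figure D1:**
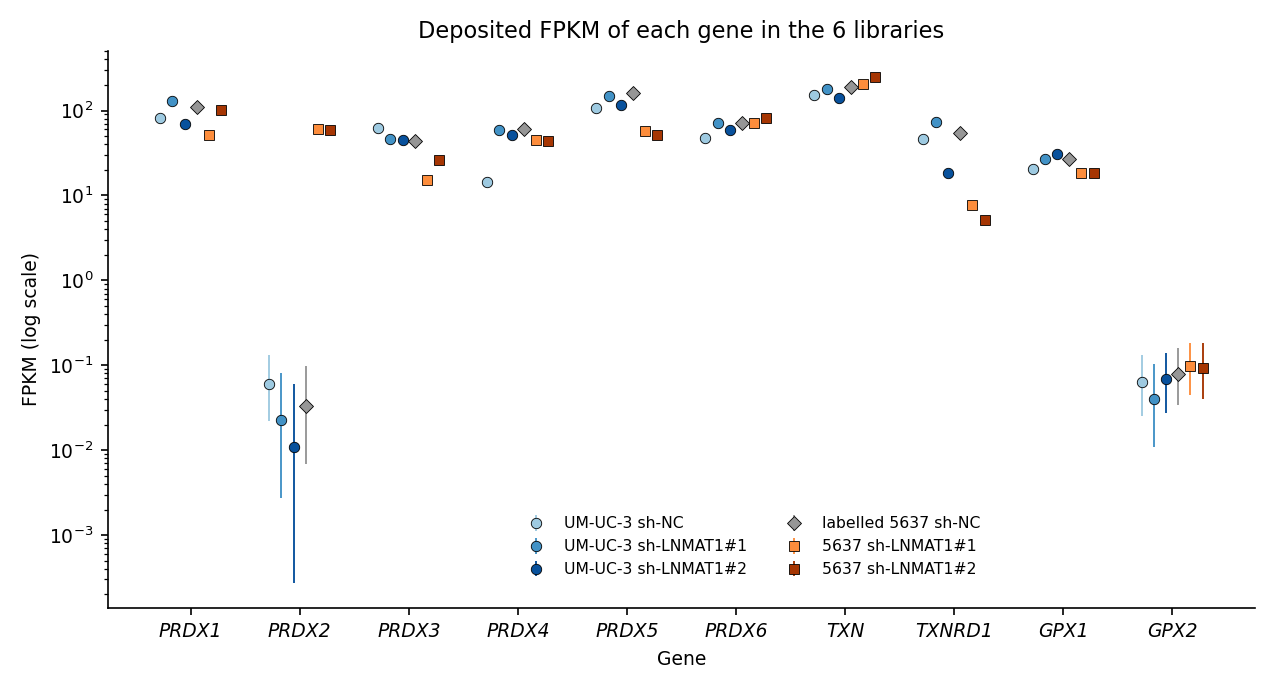
FPKM on a log axis for the 10 genes, with 1 point per library (circles UM-UC-3, diamond the library labelled 5637 sh-NC, squares 5637 knockdown) and bars for the exact 95% Poisson interval of the fragments, which is smaller than the point for most genes. PRDX2 sits near 60 FPKM in the 5637 knockdown libraries and under 0.1 FPKM in the other 4, TXNRD1 is lowest in the 5637 knockdown libraries, and PRDX4 is lowest in UM-UC-3 sh-NC.

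PRDX2 (ENSG00000167815, chromosome 19 of hg38 from 12796820 to 12801859, minus strand) encodes a cytosolic peroxiredoxin that is also abundant in red blood cells. The base sequence before its start is shown because PRDX2 was the 1 gene of the 10 that had nearly no fragments in some libraries and many in others. The window holds the 250 bases before the RefSeq start of PRDX2 on the minus strand of GRCh38.p14, chr19:12801801-12802050, with each CG in capitals.
PRDX2: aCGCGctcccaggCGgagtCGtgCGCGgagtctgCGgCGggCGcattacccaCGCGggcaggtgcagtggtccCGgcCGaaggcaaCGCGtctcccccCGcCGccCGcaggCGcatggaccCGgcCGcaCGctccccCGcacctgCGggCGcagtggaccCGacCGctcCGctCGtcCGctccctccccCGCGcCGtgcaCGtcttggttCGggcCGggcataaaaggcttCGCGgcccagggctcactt
The window holds 38 CG, which is at percentile 97.0 of 35116 RefSeq windows of the same length, whose median is 11 CG. CG-dense starts are a common feature of broadly used genes, and no methylation was measured here.

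PRDX2 was 0.0608 under sh-NC, 0.0225 under sh-LNMAT1#1 and 0.0109 FPKM under sh-LNMAT1#2 in UM-UC-3, and 0.0335 FPKM in the labelled 5637 sh-NC library. These values correspond to 6, 2, 1 and 3 fragments. It was 61.2 FPKM in 5637 sh-LNMAT1#1 and 58.3 FPKM in 5637 sh-LNMAT1#2, from 5085 and 4505 fragments. The gene was thus nearly unread in all UM-UC-3 libraries and in the labelled control, and well read in both 5637 knockdown libraries, with no overlap. With the same hairpin, 5637 sh-LNMAT1#1 held 2723 times the PRDX2 of UM-UC-3 sh-LNMAT1#1 (exact 95% interval 753 to 22500), and 5637 sh-LNMAT1#2 held 5336 times that of UM-UC-3 sh-LNMAT1#2 (957 to 211000). Against UM-UC-3 sh-NC, which had the most PRDX2 fragments of the 4 low libraries, the ratios were 1007 (462 to 2740) and 957.5 (440 to 2610). Against the library labelled 5637 sh-NC they were 1828 (625 to 8870) and 1739 (595 to 8440). The intervals cover counting error only. On the scale of log2(FPKM + 0.5) the difference between 5637 and UM-UC-3 knockdown was 6.87 on average, a value set by the constant added, since it was 9.004 with 0.1 and 5.90 with 1.

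The expressed neighbours of PRDX2 within 50 kb did not share this pattern, apart from 1 gene. JUNB, a transcription factor gene, ranged from 42.4 to 77.2 FPKM, RNASEH2A, a ribonuclease subunit gene, from 9.28 to 15.9 FPKM, and ASNA1, a gene of tail-anchored protein insertion, from 14.3 to 21.2 FPKM. In each of the 3, the 5637 knockdown values lay within or next to the range of the other libraries. HOOK2, a microtubule linker gene that spans PRDX2 on the same strand, was 3.21 and 3.22 FPKM in the 5637 knockdown libraries and 0.413 to 0.618 FPKM in the other 4. It shares 0 exon bases with PRDX2. CTD-2659N19.10, an antisense gene with 296 exon bases in common with PRDX2, was listed at 0 in all 6 libraries. The annotated copies of PRDX2 (PRDX2P1 to PRDX2P4) did not exceed 0.152 FPKM in any library.

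**Figure D2:**
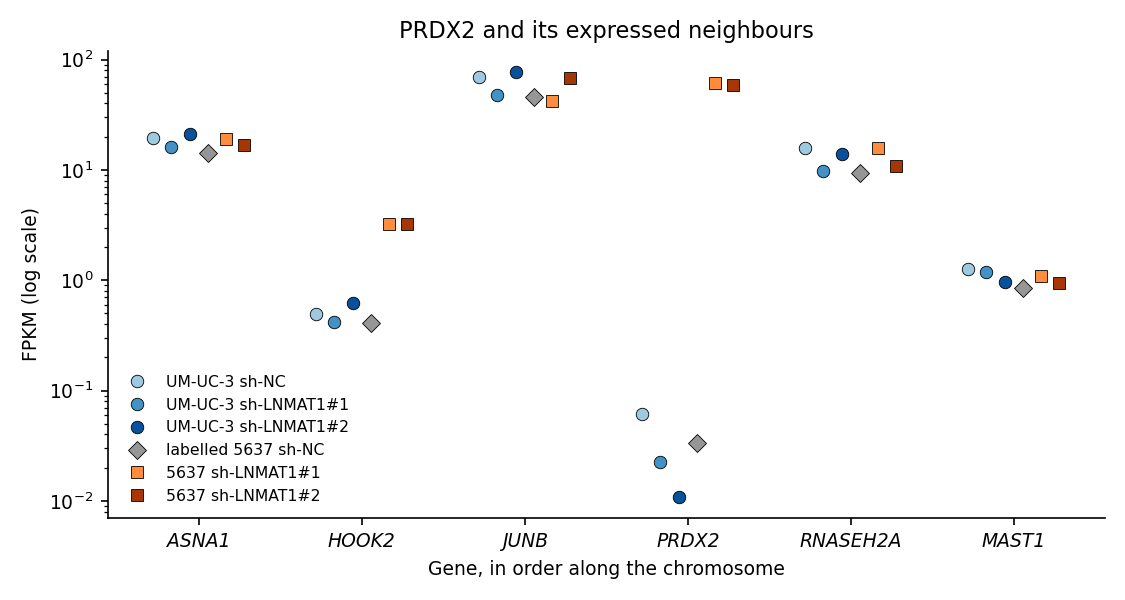
FPKM on a log axis for PRDX2 and the genes within 50 kb of it that reached 1 FPKM in any library, in their order along the chromosome, with 1 point per library. PRDX2 and HOOK2 are higher in both 5637 knockdown libraries, while each of JUNB, RNASEH2A, ASNA1 and MAST1 keeps to 1 narrow range over the 6 libraries.

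PRDX4 (ENSG00000123131, X chromosome from 23664262 to 23686399) encodes the peroxiredoxin of the endoplasmic reticulum. It was 14.4 under sh-NC, 59.5 under sh-LNMAT1#1 and 51.1 FPKM under sh-LNMAT1#2 in UM-UC-3, and 61.1 FPKM in the labelled 5637 sh-NC library, 45.3 FPKM in 5637 sh-LNMAT1#1 and 44.3 FPKM in 5637 sh-LNMAT1#2. One library, UM-UC-3 sh-NC, was low, and the other 5 lay within 44.3 to 61.1 FPKM. The log2 difference from UM-UC-3 sh-NC was 2.01 with sh-LNMAT1#1 and 1.79 with sh-LNMAT1#2, a mean of 1.90 ± 0.15 (SD over the 2 hairpins). Both hairpins are set against the same single sh-NC library, whose 1015 fragments carry a counting error of 3.14%, so whether the sh-NC level would recur in a second library was not tested. In 5637 the difference from the labelled library was -0.44 ± 0.02 (SD, n = 2 hairpins), in the other direction. Between the lines, the 5637 knockdown was lower by the same-hairpin comparison (-0.30 ± 0.13, n = 2) and higher when all 3 UM-UC-3 libraries were the reference (0.34), which follows from the low sh-NC library.

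PRDX5 (ENSG00000126432, chromosome 11 from 64318088 to 64321811) encodes a peroxiredoxin found in mitochondria, peroxisomes and the cytosol. Its level was 106 under sh-NC, 149 under sh-LNMAT1#1 and 117 FPKM under sh-LNMAT1#2 in UM-UC-3. The library labelled 5637 sh-NC had 161 FPKM, 5637 sh-LNMAT1#1 had 58.1 and 5637 sh-LNMAT1#2 had 51.2. Both 5637 knockdown libraries lay below all other libraries. The log2 difference between 5637 and UM-UC-3 knockdown was -1.27 ± 0.12 (SD, n = 2 hairpins), a 2.41-fold lower level in 5637, and from the labelled library it was -1.55 ± 0.13. In UM-UC-3 the 2 knockdown libraries were above sh-NC, by 0.49 and 0.14.

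PRDX3 (ENSG00000165672, chromosome 10 from 119167703 to 119178833), the mitochondrial peroxiredoxin gene, was 62.3 under sh-NC, 46.5 under sh-LNMAT1#1 and 44.4 FPKM under sh-LNMAT1#2 in UM-UC-3. The library labelled 5637 sh-NC had 43.7 FPKM, 5637 sh-LNMAT1#1 had 15.0 and 5637 sh-LNMAT1#2 had 26.0. The 5637 knockdown libraries were again the lowest, but only sh-LNMAT1#1 passed 2-fold, with log2 differences of -1.60 and -0.76 from the UM-UC-3 library of the same hairpin. In UM-UC-3, PRDX3 was the 1 peroxiredoxin of appreciable level that was lower with both hairpins than in sh-NC. The log2 differences were -0.42 and -0.48, and both rest on the same sh-NC library, the highest of all at 62.3 FPKM. The library labelled 5637 sh-NC, at 43.7 FPKM, lay close to the UM-UC-3 knockdown libraries, at 46.5 and 44.4 FPKM. Whether the UM-UC-3 sh-NC level would recur in another library was not tested. Both 5637 knockdown libraries were lower than the labelled library, by -1.51 and -0.74, but there knockdown and cell line cannot be told apart.

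PRDX1 (ENSG00000117450, chromosome 1 from 45511036 to 45523047, minus strand) encodes the major cytosolic peroxiredoxin. It was 82.4 under sh-NC, 131 under sh-LNMAT1#1 and 69.6 FPKM under sh-LNMAT1#2 in UM-UC-3, and 111 FPKM in the labelled 5637 sh-NC library, 50.9 FPKM in 5637 sh-LNMAT1#1 and 102 FPKM in 5637 sh-LNMAT1#2. The hairpins did not move together. With sh-LNMAT1#2, PRDX1 was 1.87-fold lower than with sh-LNMAT1#1 in UM-UC-3 and 1.998-fold higher in 5637. The same-hairpin difference between the lines was -1.35 with sh-LNMAT1#1 and 0.55 with sh-LNMAT1#2, so no direction between the lines can be given. PRDX1 shares 379 exon bases with MMACHC on the opposite strand, which did not exceed 2.56 FPKM, and whether strand was used in counting is not given in the sources used here.

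PRDX6 (ENSG00000117592, chromosome 1 from 173477266 to 173488807) encodes the peroxiredoxin that works with glutathione in place of thioredoxin and also acts on phospholipids. It was 46.8 under sh-NC, 71.5 under sh-LNMAT1#1 and 59.1 FPKM under sh-LNMAT1#2 in UM-UC-3, and 71.0, 71.9 and 81.1 FPKM in the labelled 5637 sh-NC library, 5637 sh-LNMAT1#1 and 5637 sh-LNMAT1#2. It spanned 1.73-fold over the 6 libraries, the narrowest range of the 6 peroxiredoxins. UM-UC-3 sh-NC was the lowest library for PRDX6 as well as for PRDX4. PRDX2 made up 20.2% and 16.0% of the summed deposited FPKM of the 6 peroxiredoxins in the 5637 knockdown libraries and at most 0.0195% in the other 4, while the sums were 302 and 363 FPKM against 312 to 458 FPKM, which overlap. The deposited lengths are not alike between genes, as described below. Per kilobase of exon-covered sequence the shares were 24.1% and 18.9% against at most 0.0241%. The sums on that scale were 484.7 and 587.7 against 482.4 to 720.5.

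**Figure D3:**
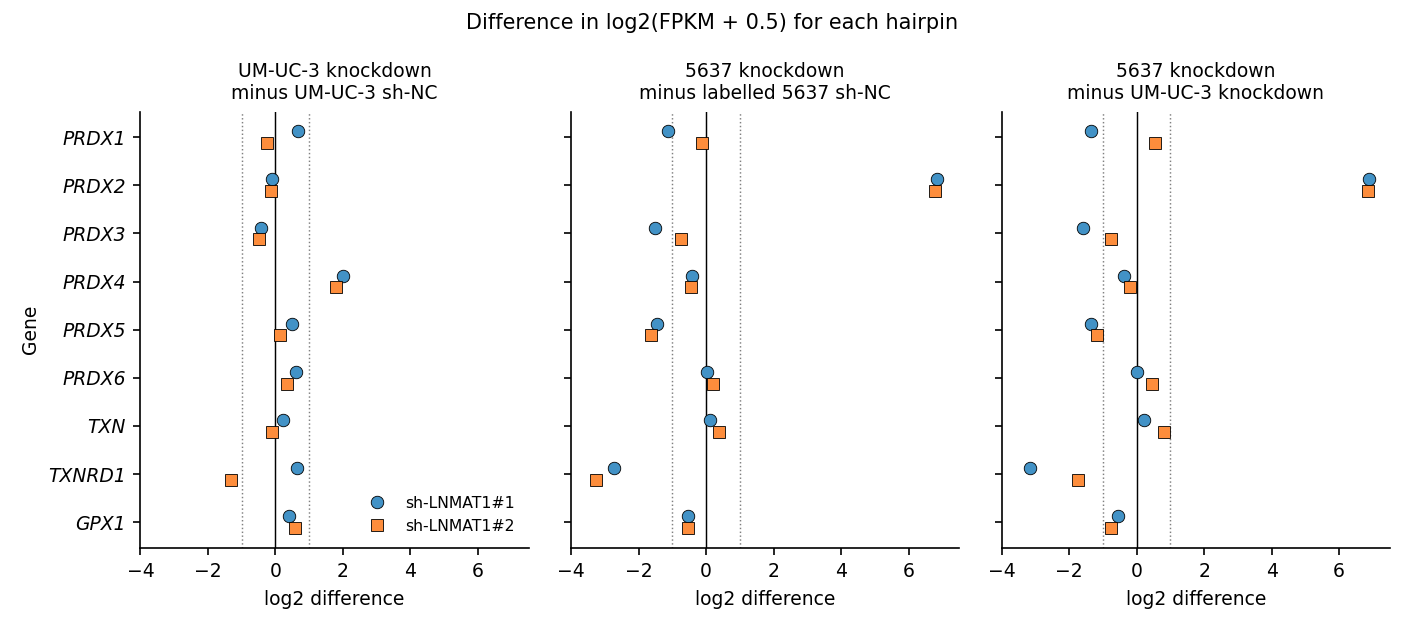
Difference in log2(FPKM + 0.5) for 9 genes in the 3 comparisons, with a circle for sh-LNMAT1#1, a square for sh-LNMAT1#2, a line at no difference and dotted lines at 2-fold. PRDX4 lies past 2-fold with both hairpins in UM-UC-3, PRDX2 far to the right and PRDX5 and TXNRD1 to the left in both comparisons of 5637, and PRDX1, TXN and TXNRD1 change side with the hairpin in UM-UC-3.

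TXN (ENSG00000136810, chromosome 9 from 110243811 to 110256640, minus strand), the cytosolic thioredoxin gene that serves the peroxiredoxins, was 153 under sh-NC, 180 under sh-LNMAT1#1 and 141 FPKM under sh-LNMAT1#2 in UM-UC-3. The library labelled 5637 sh-NC had 190 FPKM, 5637 sh-LNMAT1#1 had 208 and 5637 sh-LNMAT1#2 had 249. Both 5637 knockdown libraries were above the other 4, by 0.21 and 0.82 on the log2 scale from the UM-UC-3 library of the same hairpin, without reaching 2-fold. The range over the libraries was 1.76-fold.

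TXNRD1 (ENSG00000198431, chromosome 12 from 104215779 to 104350305) encodes the selenoenzyme that reduces thioredoxin. RefSeq on GRCh38.p14 places 2 starts for it on the plus strand, and the 250 bases before each are shown because NRF2 is known to act through the antioxidant response element. Capitals mark matches to the core of that element, TGACNNNGC, searched on both strands, and a match can include a CG. The windows are chr12:104215529-104215778 and chr12:104286782-104287031.
TXNRD1, outer start: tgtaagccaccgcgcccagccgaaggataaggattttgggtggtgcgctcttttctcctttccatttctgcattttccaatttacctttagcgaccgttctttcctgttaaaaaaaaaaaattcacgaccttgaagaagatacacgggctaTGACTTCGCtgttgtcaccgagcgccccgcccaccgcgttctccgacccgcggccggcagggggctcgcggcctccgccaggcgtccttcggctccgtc
TXNRD1, inner start: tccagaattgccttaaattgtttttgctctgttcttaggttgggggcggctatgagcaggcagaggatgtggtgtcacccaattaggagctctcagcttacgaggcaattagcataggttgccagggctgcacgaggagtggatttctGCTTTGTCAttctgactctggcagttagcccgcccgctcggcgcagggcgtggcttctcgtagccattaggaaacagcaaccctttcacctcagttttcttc
Each window holds 1 match. It begins 99 bases before the outer start, on the strand of the gene, and 102 bases before the inner start, on the opposite strand. The core occurs in 10.9% of the 35116 windows of this length. Of the 10 windows found for 8 of the 10 genes, those of TXNRD1 and of GPX2 held it. Of the 54 other thiol redox genes described below, 43 had a window and 9 held the core in any of their windows. This is a count of genes and the 10.9% is a share of windows, so the 2 are not set against each other. Of the 9, the tests described below called GCLM, ME1 and TXNL1 lower and KEAP1 and PGD higher in 5637 than in UM-UC-3 knockdown. IDH1, SCLY, SECISBP2 and SESN1 were called in neither direction. For PGD, UM-UC-3 sh-NC, at 35.6 FPKM, was as high as the 5637 knockdown libraries. SRXN1, HMOX1, OSGIN1, NQO1 and SLC7A11, which were called lower, were not among the 9, and which genes lacked a window is not given here. A match describes the letters and shows no binding.

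TXNRD1 was 46.4 under sh-NC, 72.9 under sh-LNMAT1#1 and 18.3 FPKM under sh-LNMAT1#2 in UM-UC-3, and 53.8 FPKM in the labelled 5637 sh-NC library. It was 7.74 FPKM in 5637 sh-LNMAT1#1 and 5.12 FPKM in 5637 sh-LNMAT1#2. The 5637 knockdown libraries were the lowest and did not overlap the others, and UM-UC-3 sh-LNMAT1#2 lay between them and the rest. The log2 difference between the lines was -3.16 with sh-LNMAT1#1 and -1.74 with sh-LNMAT1#2, a mean of -2.45 ± 1.00 (SD, n = 2 hairpins), and that from the labelled library was -2.998 ± 0.39. In UM-UC-3, TXNRD1 differed from sh-NC by 0.65 with sh-LNMAT1#1 and by -1.32 with sh-LNMAT1#2, so the hairpins pointed opposite ways and stood 3.91-fold apart. TXNRD1 rests on 1800 to 29451 fragments, and the counting error did not exceed 2.36% in any library.

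Genes that overlap the TXNRD1 locus also differed between the lines. RP11-818F20.5, an antisense gene with 0 shared exon bases, was 1.33 under sh-NC, 2.88 under sh-LNMAT1#1 and 0.684 FPKM under sh-LNMAT1#2 in UM-UC-3. It was 1.53 FPKM in the labelled library and 0.137 and 0.2945 FPKM in the 5637 knockdown libraries. EID3, which lies within TXNRD1 on the same strand and shares 0 exon bases with it, was 3.78 to 5.06 FPKM in the 3 UM-UC-3 libraries and the labelled library and 0.164 and 0.106 FPKM in the 5637 knockdown libraries. RPL18AP3, a ribosomal protein copy in an intron of TXNRD1, was 930 to 1316 FPKM in those 4 libraries and 608 and 626 FPKM in the 5637 knockdown libraries. How reads that fit several genes were assigned is not given in the sources used here, and processed copies of ribosomal protein genes can take reads of the parent gene.

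GPX1 (ENSG00000233276, chromosome 3 from 49357176 to 49358600, minus strand) encodes the cytosolic glutathione peroxidase. It was 20.5 under sh-NC, 27.2 under sh-LNMAT1#1 and 31.0 FPKM under sh-LNMAT1#2 in UM-UC-3, and 26.8 FPKM in the labelled 5637 sh-NC library and 18.2 FPKM in both 5637 knockdown libraries. It spanned 1.70-fold, the narrowest range of the 10 genes. Its log2 difference was 0.49 ± 0.13 (SD, n = 2 hairpins) in UM-UC-3 knockdown and -0.66 ± 0.13 between 5637 and UM-UC-3 knockdown. GPX1P1, a copy of GPX1, was 3.49 to 4.93 FPKM, and reads could be split between the 2. The other copies of the 10 genes that reached 1 FPKM in any library, of 19 listed, were TXNP4 at 0.869 to 1.67 FPKM and PRDX3P1 at 0.159 to 1.18 FPKM.

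GPX2 (ENSG00000176153, chromosome 14 from 64939152 to 64942905, minus strand), the glutathione peroxidase gene of the gut lining, was 0.0402 to 0.0684 FPKM in the UM-UC-3 libraries, 0.0799 FPKM in the labelled library and 0.0970 and 0.0925 FPKM in the 5637 knockdown libraries. These values come from 4 to 9 fragments a library, and the exact 95% Poisson intervals of all 6 counts overlap (the lowest 1.09 to 10.2 fragments, the highest 4.12 to 17.1). A difference in GPX2 was not detectable at this depth.

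Levels of different genes can be set side by side only per length, and the deposited FPKM was found to use a length that counts overlapping exons more than once. That length was 1.26 times the bases covered by exons for PRDX3 and 2.98 times for GPX2, with TXNRD1 at 2.70. For GPX1 the covered bases are those of GENCODE 29, whose GPX1 exons differ from those behind the deposited values. Recomputed per kilobase of exon-covered sequence, the mean level over the 2 knockdown libraries of UM-UC-3 was 209.95 for PRDX5, 206 for TXN, 186 for PRDX1, 123 for TXNRD1, 86.2 for PRDX6, 83.0 for PRDX4, 75.8 for GPX1 and 57.4 for PRDX3. PRDX5, TXN and PRDX1 overlapped in range there, as did PRDX6, PRDX4 and GPX1, while TXNRD1 spanned 49.4 to 197. In 5637 knockdown on this scale the order was TXN at 293, PRDX1 at 142, PRDX2 at 114, PRDX6 at 101, PRDX5 at 86.3, PRDX4 at 67.2, GPX1 at 47.5, PRDX3 at 25.9 and TXNRD1 at 17.4. The TXN range, 266 to 319, stood above all others there, and the range of PRDX1, 94.3 to 189, took in those of PRDX2 and PRDX6. TXNRD1 stood at place 4 of the 10 genes in UM-UC-3 knockdown and at place 9 in 5637 knockdown, and PRDX2 at place 10 and at place 3.

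For the 3 genes with the widest log2 range, PRDX2, TXNRD1 and PRDX4, the genes with the most similar pattern over the 6 libraries were found by the root mean square difference of their centred log2(FPKM + 0.5) values. For PRDX2 they were ST14 (0.098), MDK (0.11) and WFDC2 (0.14), a membrane protease, a growth factor and a secreted epithelial protein, all at 49.2 to 85.7 FPKM in the 5637 knockdown libraries and at most 0.209 FPKM in the others. For TXNRD1 they were RP11-585P4.6 (0.25), SLFN11 (0.27) and LPXN (0.28). For PRDX4 they were ISCA1P1 (0.13), KLF16 (0.16) and ISCA1 (0.20), of which ISCA1P1 is a copy of ISCA1 that can share its reads. KLF16 was 2.996 FPKM under sh-NC in UM-UC-3 and 9.34 to 12.6 FPKM in the other 5 libraries. Likeness over 6 libraries from 2 lines is a description only.

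The other genes of thiol redox metabolism were taken from 8 lists with 54 genes in all, of which 43 had a mean that reached 1 FPKM. They were tested with limma over all genes, where the 2 hairpins of a line stand in for replicates and leave 2 residual degrees of freedom, so the p-values measure the spread between hairpins. The lists were chosen with earlier results of these data known, so their counts and p-values here and below are descriptions. In UM-UC-3 knockdown against sh-NC, 0 of the 43 passed an adjusted p of 0.05 in either direction, where 0% of all genes were higher and 0% lower and 768 genes had an unadjusted p under 0.05. In 5637 knockdown against UM-UC-3 knockdown, 6 of the 43 were higher and 16 lower, beside 18.4% and 19.1% of all genes. In 5637 knockdown against the library labelled 5637 sh-NC, 6 were higher and 10 lower, beside 15.9% and 15.1% of all genes. The median log2 difference of the 43 was 0.047 in UM-UC-3, -0.33 against the labelled library and -0.28 between the knockdowns of the lines. The number of calls depended on the filter on low values. Without it limma called 4 of the 54 between the lines, beside 3138 of all 50867 genes. Against the labelled library it called 3 of the 54, beside 3383 of the 50867. The shares of the 54 were thus close to those of all genes. With a filter of 5 FPKM limma called 17 and 14 of the 29 that were left, beside 2177 and 1773 of all 6249 genes left. The comparison between the lines has 1 medium per line, so medium and line cannot be told apart.

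In the thioredoxin and glutaredoxin list, 7 of 12 genes tested were lower in 5637 than in UM-UC-3 knockdown and 0 were higher. SESN2, a stress-induced sestrin, was 98.8 FPKM under sh-NC, 123 under sh-LNMAT1#1 and 104 under sh-LNMAT1#2 in UM-UC-3, 104 FPKM in the labelled 5637 sh-NC library, and 13.5 and 10.6 FPKM in the 5637 knockdown libraries. Its log2 difference between the lines was -3.19 (limma adjusted p = 0.00041). SRXN1, which repairs overoxidised peroxiredoxins, was 96.9 to 157 FPKM in the UM-UC-3 libraries, 119.9 FPKM in the labelled library and 29.2 and 31.3 FPKM in the 5637 knockdown libraries, a log2 difference between the lines of -2.17 (limma adjusted p = 0.0014). Both genes were thus low in the same 2 libraries as TXNRD1. The other 5 of the 7, named after their values were seen, were TXNL1, TXNDC17, GLRX2, GLRX3 and GLRX5, with log2 differences of -0.84 to -0.95. TXNRD2 and TXNRD3, the other thioredoxin reductase genes, did not pass and were 1.30 to 2.02 FPKM and 1.54 to 1.90 FPKM over the 6 libraries.

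Of the 5 genes of glutathione synthesis and reduction, 2 were lower in 5637 and 0 higher. GCLM, the regulatory subunit of the enzyme that limits glutathione synthesis, was 21.4 under sh-NC, 19.6 under sh-LNMAT1#1 and 9.34 FPKM under sh-LNMAT1#2 in UM-UC-3, 19.0 FPKM in the labelled library and 2.92 and 2.37 FPKM in the 5637 knockdown libraries. Its log2 difference between the lines was -2.16 (limma adjusted p = 0.0095). SLC7A11, the cystine importer, was the other call at -1.39 (limma adjusted p = 0.0094). Of the 6 genes tested in the list of NRF2, KEAP1 and known NRF2 targets, 3 were lower and 1 higher. HMOX1, heme oxygenase, was 30.8 under sh-NC, 74.8 under sh-LNMAT1#1 and 15.9 FPKM under sh-LNMAT1#2 in UM-UC-3, 57.2 FPKM in the labelled library and 3.42 and 2.86 FPKM in the 5637 knockdown libraries, a log2 difference between the lines of -3.28 (limma adjusted p = 0.018). OSGIN1, an oxidative stress-induced growth inhibitor, differed by -2.04 (limma adjusted p = 0.0058) and NQO1, a quinone reductase, by -1.35 (limma adjusted p = 0.024). KEAP1 was the gene that was higher, at 3.43 to 4.03 FPKM in the UM-UC-3 libraries and the labelled library and 8.14 and 7.56 FPKM in the 5637 knockdown libraries, a log2 difference of 0.94 (limma adjusted p = 0.019). NFE2L2, which encodes NRF2, was 2.74 to 7.23 FPKM in the UM-UC-3 libraries and 4.50 and 2.88 FPKM in the 5637 knockdown libraries, which overlap.

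Genes of enzymes that act on superoxide and on peroxide without thiols were called in the other direction. Of the 3 superoxide dismutase and catalase genes tested, 2 were higher in 5637 than in UM-UC-3 knockdown and 3 were higher than in the labelled library, with 0 lower in either. CAT, the catalase gene, was 7.72 FPKM under sh-NC, 4.77 under sh-LNMAT1#1 and 7.97 under sh-LNMAT1#2 in UM-UC-3, 4.40 FPKM in the labelled library and 19.3 and 22.8 FPKM in the 5637 knockdown libraries, a log2 difference between the lines of 1.69 (limma adjusted p = 0.0094). SOD1, the cytosolic superoxide dismutase gene, was 44.0 to 56.4 FPKM in the 4 other libraries and 80.0 and 80.9 FPKM in the 5637 knockdown libraries, a log2 difference of 0.69 (limma adjusted p = 0.032). SOD2, the mitochondrial one, was 9.35 and 8.17 FPKM in the 5637 knockdown libraries against 2.19 FPKM in the labelled library (limma adjusted p = 0.031) and 3.32 and 6.76 FPKM in the UM-UC-3 knockdown libraries.

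Among the genes of NADPH supply, PGD and TALDO1 were higher and ME1 was lower in 5637 than in UM-UC-3 knockdown. PGD, of the pentose phosphate pathway, was 35.6 under sh-NC, 14.8 under sh-LNMAT1#1 and 20.3 FPKM under sh-LNMAT1#2 in UM-UC-3, and 13.8 FPKM in the labelled library and 28.9 and 34.5 FPKM in the 5637 knockdown libraries. Its call between the knockdowns (log2 difference 0.85, limma adjusted p = 0.041) leaves out UM-UC-3 sh-NC, which was as high as the 5637 libraries. Of the 4 methionine sulfoxide reductase genes, MSRB1 was higher and MSRA and MSRB3 were lower. None of the 5 genes of selenocysteine incorporation and neither GPX4 nor GPX8, the other glutathione peroxidase genes tested, passed in any of the 3 comparisons. GPX4, which protects lipids from peroxidation, was 27.5 to 40.1 FPKM in the UM-UC-3 libraries and the labelled library and 31.8 and 42.1 FPKM in the 5637 knockdown libraries.

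**Figure D4:**
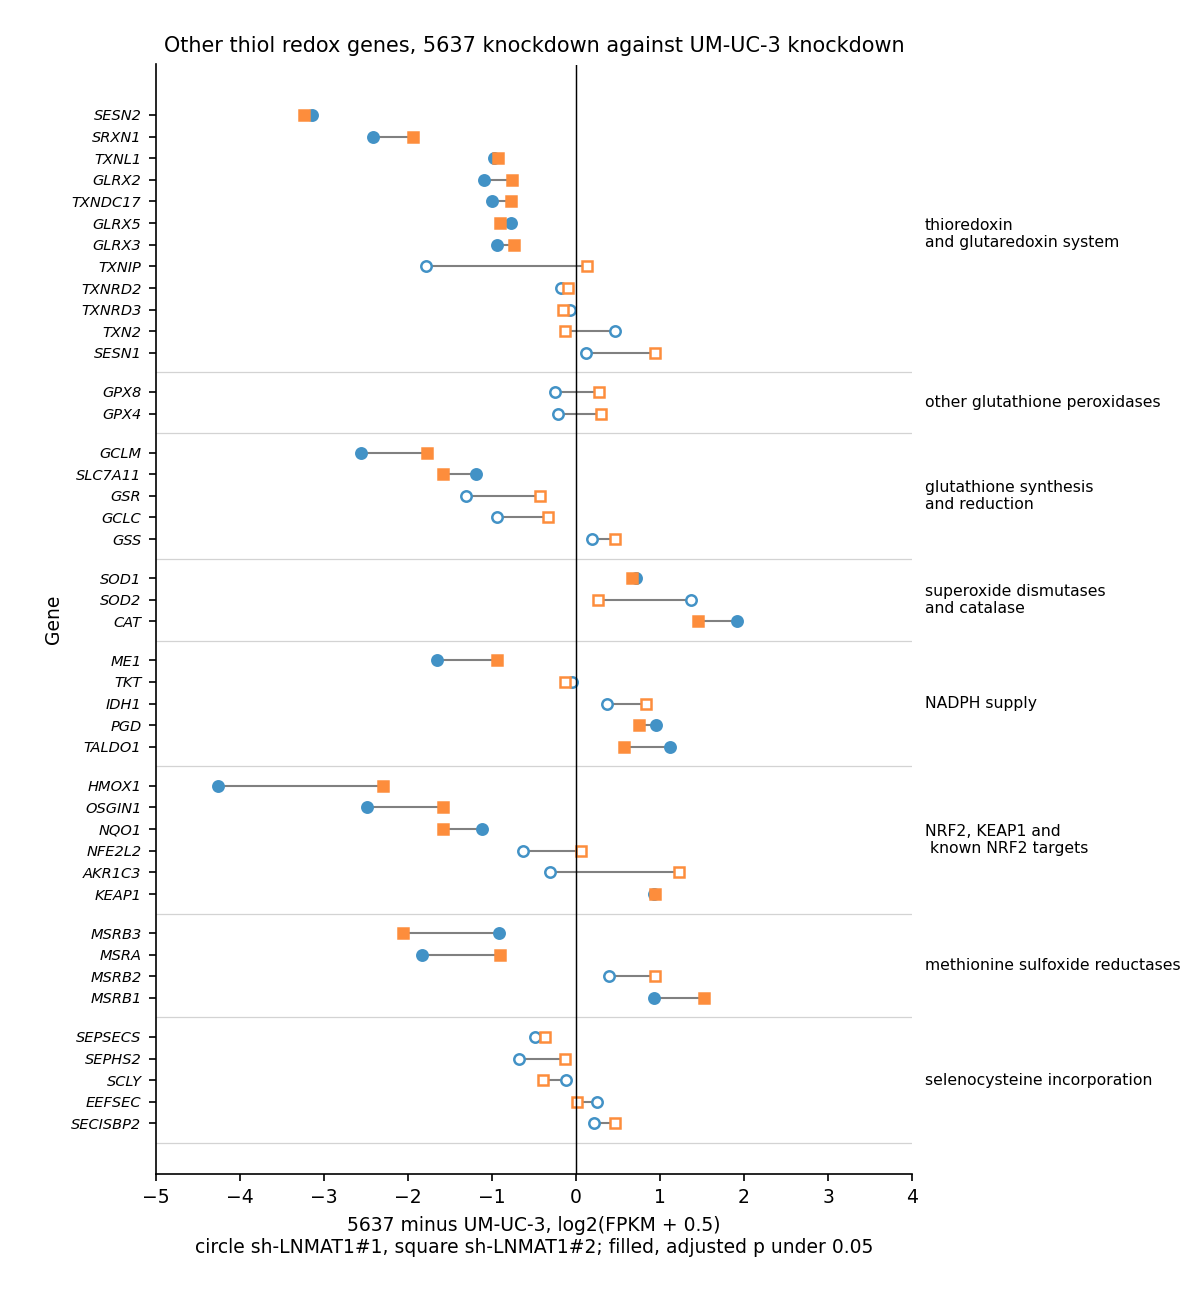
Difference in log2(FPKM + 0.5) between 5637 and UM-UC-3 knockdown for 42 other thiol redox genes by list, with a circle for sh-LNMAT1#1, a square for sh-LNMAT1#2 and filled marks for a limma adjusted p under 0.05. SESN2, SRXN1, GCLM, HMOX1 and OSGIN1 lie furthest to the left, and CAT lies furthest to the right among the filled marks.

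The hairpins were compared with each other after the data were seen, because TXNRD1 and PRDX1 differed between them. In UM-UC-3, TXNRD1 was the 1 of the 9 genes that was at least 2-fold lower with sh-LNMAT1#2 than with sh-LNMAT1#1 and 0 were higher, where 4.29% of all genes were lower and 3.93% higher. In 5637, 0 of the 9 passed 2-fold between the hairpins, with PRDX1 just under it, where 0.865% of all genes were lower and 1.11% higher. Of the 43 other thiol redox genes, 6 were at least 2-fold lower and 1 higher with sh-LNMAT1#2 in UM-UC-3, and 0 in 5637. The 6, named after their values were seen, were HMOX1 (4.58-fold), TXNIP (3.62-fold), AKR1C3 (2.76-fold), NFE2L2 (2.39-fold), GPX8 (2.21-fold) and GCLM (2.04-fold), and the 1 higher was MSRB3 (2.13-fold). TXNIP, which binds and inhibits thioredoxin, was 19.3 under sh-NC, 54.8 under sh-LNMAT1#1 and 14.8 FPKM under sh-LNMAT1#2 in UM-UC-3. It was 43.7 FPKM in the labelled 5637 sh-NC library and 15.5 and 16.2 FPKM in the 5637 knockdown libraries. For TXNIP, HMOX1 and TXNRD1 the labelled library lay between UM-UC-3 sh-NC and UM-UC-3 sh-LNMAT1#1. Each of these values is 1 library, so a hairpin effect and a difference between single cultures cannot be told apart.

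**Figure D5:**
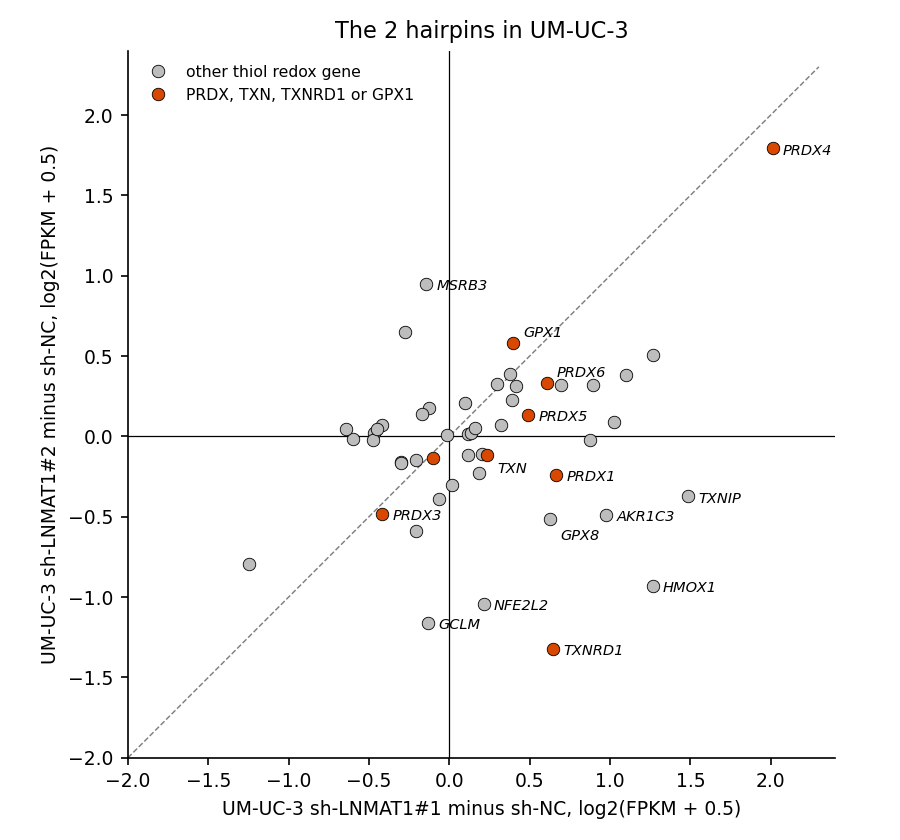
Log2(FPKM + 0.5) difference from UM-UC-3 sh-NC with sh-LNMAT1#1 (horizontal) and with sh-LNMAT1#2 (vertical) for 9 of the 10 genes (orange) and 42 other thiol redox genes (grey), with a dashed line of equal difference. PRDX4 lies near that line at the upper right, while TXNRD1 and HMOX1 lie at the lower right, higher with sh-LNMAT1#1 and lower with sh-LNMAT1#2 than in sh-NC.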

How the data were processed

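The authors deposited FPKM per gene for the 6 libraries in 1 table of 50869 rows, of which 2 rows without usable values were left out. The submitters' processing notes name HISAT2 and hg38, and the counting program and annotation are not given in the sources used here. The library kit was stranded. The depth and the fragments behind each value were recovered from whole multiples, within 0.05 of a fragment for counts up to 30. Single-exon values came out whole in at least 99.95%, and values of genes with overlapping exons in at least 85.6% when the length was the sum of distinct GENCODE 29 exons, against at most 8.75% with the exon-covered length. For GPX1, whose exons differ in GENCODE 29, 1 length between 300 and 6500 bases made all 6 values whole. The fragments were used for counting intervals only.

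Tables were handled in Python 3.11.15 (numpy 2.4.6, pandas 2.3.3, matplotlib 3.10.9) and tests run in limma 3.58.1 under R 4.3.3. Differences were taken in log2(FPKM + 0.5), a scale that understates changes of low genes, after a filter that kept genes whose mean over the 6 libraries reached 1 FPKM. limma fitted each line's sh-NC and knockdown libraries as 4 means with a variance trend, with Benjamini-Hochberg adjustment over all genes tested. Nothing says that the 2 hairpin libraries of a line are biological replicates. The members, lists and comparisons were chosen with earlier results of these data known. Genes named were the 10 members, and of the other thiol redox genes up to 4 higher and 4 lower per comparison, ranked by the smaller difference of the 2 hairpins, annotated copies that reached 1 FPKM in any library, the 3 most similar genes for each of 3 members, and LINC01296. Any other gene was named after its values were seen. AKR1C3 has 2 rows, and the higher was used. The values of 1 of the 43 other thiol redox genes tested are not reported here. As alternatives, 75th-percentile scaling was tried, and pseudocounts of 0.1 or 1, other filters and fold limits, each hairpin alone, a fit without the trend, a hairpin block and other reference libraries. Start-site windows came from RefSeq (GRCh38.p14), matched by symbol.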

Additional observations from a re-analysis of the deposited data

Results flagged for a closer look

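PRDX4, PRDX5 and GPX1 differed from the library labelled sh-NC in opposite directions under the 2 line labels. Both hairpins of a line lay on the same side. The log2 difference under the 5637 label minus that in UM-UC-3 was -2.35 for PRDX4, -1.87 for PRDX5 and -1.03 for GPX1. The mean differences in UM-UC-3 and under the 5637 label were 1.90 and -0.44 for PRDX4, 0.31 and -1.55 for PRDX5, and 0.49 and -0.55 for GPX1. PRDX2 also differed in opposite directions, by -0.12 and 6.82, but its UM-UC-3 values rest on 1 to 6 fragments a library, so no direction was read from them. These contrasts were not tested, since the genes were chosen on these values. Each rests on 1 sh-NC library. Those of 5637 use the library labelled 5637 sh-NC, whose marker levels are those of the UM-UC-3 libraries. There knockdown and cell line cannot be told apart, so no opposite response to knockdown was read from these values.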

How the results depend on the processing

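Of 90 values of the members' log2 differences under other scalings, pseudocounts or reference libraries, 77 moved by less than the spread between hairpins and 1 changed sign, PRDX4 between the lines (0.34 against all 3 UM-UC-3 libraries, main -0.30). Each hairpin alone lies within that spread by construction, and 4 of these 54 values had the opposite sign to the mean: PRDX1 (-0.24) and TXN (-0.11) with sh-LNMAT1#2 and TXNRD1 (0.65) with sh-LNMAT1#1 in UM-UC-3, and PRDX1 (0.55) with sh-LNMAT1#2 between the lines. limma without a filter called 1394 genes in UM-UC-3 knockdown (main 0) and 3138 between the knockdowns of the lines (main 4767), and with a filter of 5 FPKM 2177 there and 1773 against the labelled library (main 3944). Other thiol redox genes called without the filter numbered 4 of 54 (main 22 of 43) and 3 of 54 (main 16 of 43). With a filter of 5 FPKM they numbered 17 and 14 of 29. The hairpin number as a replicate block called 5143 genes between the lines, and all 3 UM-UC-3 libraries as the reference 5403. The numbers do not pair cultures. By the fold rule in UM-UC-3 (main 167), the count was 264 and 105 with pseudocounts of 0.1 and 1, 800 and 29 at 1.5-fold and 3-fold, 94 at 5 FPKM, and 1290 and 406 with sh-LNMAT1#1 or sh-LNMAT1#2 alone. Against the labelled library (main 3831) it was 6355 and 2038 at 1.5-fold and 3-fold and 1777 at 5 FPKM. Between the lines (main 2952) it was 4995 and 1620 at these limits, 1251 at 5 FPKM and 4493 with sh-LNMAT1#1 alone. Between the 5637 hairpins (main 251) it was 441 with a pseudocount of 0.1. Members past 2-fold numbered 2 of 9 with sh-LNMAT1#2 alone in UM-UC-3 (main 1), beside 406 of the 12716 genes. With sh-LNMAT1#1 alone, members past 2-fold numbered 5 of 9 in both 5637 comparisons (main 3). Beside them stood 4597 of the 12716 genes against the labelled library and 4493 between the lines. Leaving out the library labelled 5637 sh-NC left 0 calls in UM-UC-3 by limma, with 763 unadjusted p-values under 0.05, and 22 of the 43 other thiol redox genes called between the lines. Against UM-UC-3 sh-NC, a reference chosen after seeing the data as the hairpin comparisons were, the 5637 knockdown had 3452 of the 12716 genes and 4 of the 9 members past 2-fold. The cause of these shifts was not tested. One library per construct and line limits every comparison, and depth limits PRDX2 outside 5637 knockdown and GPX2 everywhere.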
